A study of Mus musculus with 2 samples.

Results

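The SWI/SNF (BAF) complexes are ATP-dependent chromatin remodellers, and the transcripts of 10 of their subunit genes were described here by the positions that nanopore tools listed in them as m6A. The 10 genes were Smarca4, Smarcc1, Smarcd1, Smarcb1, Smarce1, Arid1a, Actl6a, Dpf2, Brd7 and Brd9. A position belonged to a gene where it lay in an exon of that gene on the same strand, and each genome position and strand was counted once. The 10 genes held 251 of the 160430 positions of the series. None of the 251 lay in exons of a second gene, and the own listing of all 251 named the gene or a transcript of it.

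Poly(A) RNA of mouse embryonic stem cells (mESCs) of strain 129, either wild-type (WT) or with a Mettl3 knockout (KO), was read as native RNA by direct RNA sequencing, with 1 library per condition and no replicates. In the KO cells exons 5 to 7 of Mettl3, the catalytic subunit of the m6A methyltransferase, were replaced by puromycin and hygromycin resistance genes on both alleles, and KO colonies were selected with both drugs, so WT cells differ from KO cells in these cassettes and that selection too. A pair of lists, 1 of WT and 1 of KO, came from each of the tools that read a library alone (single-mode), namely Tombo, MINES, Nanom6A, m6Anet, ELIGOS and Epinano, and also from xPore, which works in compare-mode. Nanocompore, DiffErr and DRUMMER each had 1 comparison list of WT against KO, which gave 17 lists in all. A list gives positions without a score, a rate or a read number, so the depth behind each position is unknown and a position that is absent from a list may have been unread or read and not called. The paper reported by mass spectrometry that mRNA of the KO cells was nearly free of m6A. It proposes that false positives are common among sites that single-mode tools listed in KO. A listed position is thus not by itself an m6A site.

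The m6A mark is written on nascent mRNA by the Mettl3-Mettl14 complex at the motif RRACH, in which R is A or G and H is A, C or T. It is known to gather around stop codons and in long internal and last exons, and it marks transcripts for decay. SWI/SNF complexes slide and eject nucleosomes with the ATPase Smarca4 (Brg1) or its paralog Smarca2, and the form of embryonic stem cells, esBAF, is built around Smarca4 and Smarcc1 and is needed for self-renewal. All 251 positions lay in RRACH, as did 99.7% of the positions of the series. The authors tested sites in RRACH motifs, so this share follows from that choice, in WT and KO alike.

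The strongest listings of the 10 genes are shown as 21 bases of the spliced transcript, 5′ to 3′, with the listed 5-mer in capitals, the listed adenosine being its middle base. Sequences are from the GRCm38 genome with GENCODE M21 exons, and coordinates are given where the 21 bases lie in 1 exon. The first set is shown because at least 3 tools listed the position in WT and at least 3 in KO.
Smarcd1, chr15:99713773-99713793, plus strand: gtgacactGGACAgccctggg
Smarcd1, chr15:99713696-99713716, plus strand: tgtactggGGACAgcagtctt
Smarcd1, chr15:99712979-99712999, plus strand: tgccctctGGACTtaacctgc
Dpf2, chr19:5897520-5897540, minus strand: gtaggaggGGACAgtcctctg
Brd7, chr8:88337090-88337110, minus strand: agagcattGGACAcagcaaaa
Arid1a, chr4:133680577-133680597, minus strand: ttcctggaGGACAgccttgct
Smarcb1, chr10:75896939-75896959, minus strand: catcctgaGGACTggggtagg
Smarcb1, chr10:75921361-75921381, minus strand: gttgagcaAGACCttcgggca

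The next pair holds the positions of the 10 genes that at least 3 tools listed in WT and that were in no KO list, a choice made after the values were seen. The Smarca4 adenosine is base 21678936 of chromosome 9 on the plus strand, near the start of exon 28.
Smarca4, exon 28: atgcgcatGGACTtggaccgc
Smarcd1, chr15:99712513-99712533, plus strand: attccaggGGACTtggcttca

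The last set shows 3 positions that at least 2 tools listed in KO and none in WT.
Smarcd1, chr15:99703208-99703228, plus strand: tcagggatGGACCagtcccgc
Smarcb1, chr10:75904409-75904429, minus strand: gcatccgaGGACAgctgagct
Arid1a, chr4:133681950-133681970, minus strand: gggacccaGGACAgagaacat

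WT lists of the 10 genes held 211 positions, KO lists held 179, and 139 were in both. No position of the 10 genes was in a comparison list, so every WT position below comes from a WT list. Of the 211 WT positions, 72 were in no KO list, which is 34.1% (95% Wilson interval 28.1 to 40.8) against 41.0% of all WT or comparison positions of the series. Without the Tombo lists this difference from the series was not seen, as 80 of 147 WT positions (54.4%) of the 10 genes and 53.0% of those of the series were then in no KO list. KO positions numbered 88 without Tombo, and 67 of 168 positions were in both libraries. Intervals here cover counting error only. Of the 179 KO positions, 40 (22.3%, 16.9 to 29.0) were in no WT list, and the share over the series was 29.2%. Without Smarca4, which held 27 of the 72, the share of WT positions in no KO list was 28.3% (21.9 to 35.8).

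**Figure D1:**
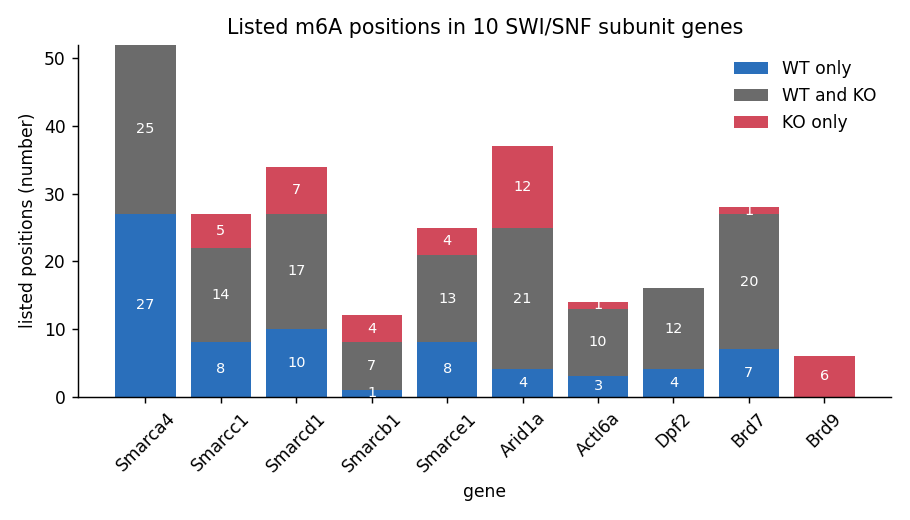
Number of listed positions (y axis) in each of the 10 subunit genes (x axis), divided into positions listed in WT only, in WT and KO, and in KO only. The bar of Smarca4 has 27 positions in WT only and none in KO only, that of Arid1a has 4 in WT only and 12 in KO only, and that of Brd9 has 6 in KO only.

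The 3 comparison lists, which set WT against KO, held 2.45% of all WT or comparison positions and 0 of the 211 in these genes, which allows a share of up to 1.42% (3 counts of 211), while the 95% Wilson upper limit is 1.79%. Of all genes with at least 8 WT or comparison positions, 21.7% had a position in a comparison list. All 9 of the subunit genes with WT listings had at least 8 and none had such a position. xPore listed no position of the 10 genes in WT or in KO, and its WT list held 4.16% of all WT or comparison positions of the series. No position of the 10 genes was listed by at least 6 of the 10 tools, a support that 1.98% of all WT or comparison positions had.

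Most positions rested on a single tool. In WT, 135 of the 211 positions (64.0%, 57.3 to 70.2) were listed by 1 tool, against 65.3% over the series. Support by 2 tools was found at 52 positions, by 3 tools at 20, by 4 tools at 3 and by 5 tools at 1. In KO, 139 of 179 positions (77.7%, 71.0 to 83.1) were listed by 1 tool, against 76.7% over the series. Tombo alone gave 64 of the WT positions and 91 of the KO positions. MINES, which takes values of Tombo as its input and lists only the motif AGACT and motifs that begin with GGAC, gave 3 WT positions and 0 KO positions alone.

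The tools differed in how often a WT listing came back in their own KO list. Tombo, which looks for deviations of the current from the canonical signal, listed 131 WT and 126 KO positions, and 94 were shared. The share of its WT positions repeated in KO was 71.8% (63.5 to 78.8), against 59.7% for all its WT positions. For m6Anet, a neural network on current features, 23 of 41 WT positions were repeated, which is 56.1% (41.0 to 70.1), against 34.4% over its whole list. Nanom6A, which classifies the current of single reads, went the other way with 15 of 39, or 38.5% (24.9 to 54.1), against 65.4%. Over these 3 tools the intervals of the subunit genes did not include the value of the whole list, and no test across libraries was possible. In 19 other SWI/SNF subunit genes, described below, Nanom6A repeated 13 of 29 (44.8%, 28.4 to 62.5), also below its whole list. Tombo (61.5%, 51.3 to 70.9) and m6Anet (42.3%, 25.5 to 61.1) had intervals there that included their whole-list values.

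The other 3 single-mode tools had intervals that included the value of their whole lists. MINES repeated 10 of 31 WT positions in KO, or 32.3% (18.6 to 49.9), against 40.2%. Epinano, which reads base-calling errors, repeated 17 of 69, or 24.6% (16.0 to 36.0), against 16.5%, and ELIGOS, which also reads errors, 1 of 5 (3.62 to 62.4%), against 11.5%. Epinano had the lowest KO to WT ratio of the single-mode tools in these genes, with 69 WT and 23 KO positions, which gives 0.333 (95% exact interval 0.198 to 0.541), close to its ratio of 0.339 over the series. The ratio of Tombo was 0.962 (0.747 to 1.24) and that of m6Anet 0.854 (0.528 to 1.37), while over the series they were 0.905 and 0.580. MINES, with 17 KO positions, had a ratio of 0.548 (0.285 to 1.02) against 0.703, and Nanom6A, with 25, one of 0.641 (0.372 to 1.09) against 0.831. ELIGOS was the only single-mode tool with more KO than WT positions in these genes, 7 against 5, a ratio of 1.40 (0.382 to 5.59) whose interval includes 1 and lies above the 0.259 of its whole list.

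**Figure D2:**
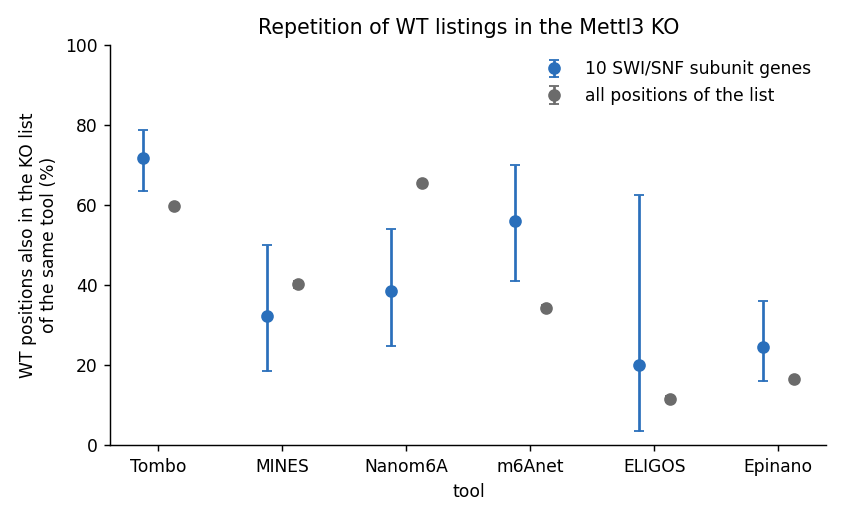
Percentage of WT positions that were also in the KO list of the same tool (y axis) for 6 single-mode tools (x axis), in the 10 subunit genes (blue) and over all positions of the list (grey), with 95% Wilson intervals. The value of the subunit genes lies above that of the whole list for Tombo, m6Anet, ELIGOS and Epinano and below it for MINES and Nanom6A.

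Smarca4, the ATPase that drives the complex, was the most densely listed member in WT and the one with the largest difference in positions between the libraries. It held 52 positions on chr9:21616169-21704230 (plus strand), all 52 of them in WT and 25 also in KO, and no position was in KO only. The KO to WT ratio was 0.481 (0.286 to 0.789) and lay at percentile 16.4 of the 6789 genes with at least 8 WT or comparison positions, whose median ratio was 0.800. Genes with few WT and many KO positions are missing from this set, which affects every percentile of the ratio given here. Tombo listed 34 positions in WT and 18 in KO, Epinano 22 and 3, Nanom6A 11 and 4, m6Anet 6 and 3, and MINES 6 and 1. Every tool that listed the gene thus had more positions in WT, and ELIGOS listed none in either library.

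KO positions of Smarca4 began farther downstream than WT positions. On Smarca4-201, with 6354 nt and 34 exons, WT positions reached 5935 nt from the 3′ end and KO positions 4934 nt. Of the 21 RRACH motifs upstream of the last KO position, 10 were listed in WT, among them 7 in exon 4, an internal exon of 405 nt with no KO position, and since the KO positions set this boundary no KO position can lie beyond it. Downstream of that point lay 42 WT positions and 25 KO positions. At 1000 to 2000 nt from the 3′ end 12 of 14 motifs had a WT listing and 10 a KO listing. The numbers were 12 and 6 of 18 at 2000 to 3000 nt, 5 and 1 of 11 at 3000 to 4000 nt, and 21 and 6 of 43 beyond. In WT the shares of these 4 stretches were 85.7%, 66.7%, 45.5% and 48.8%, beside 28.6%, 23.3%, 18.9% and 12.3% over all genes. In KO they were 71.4%, 33.3%, 9.09% and 14.0%, beside 24.1%, 19.4%, 15.1% and 10.4% over all genes. The number of reads that covered each stretch in each library is not in the lists, and its part in this difference was not tested.

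In WT 6 positions of Smarca4 had 3 tools. The GGACT of exon 28 shown above, 983 nt before the stop codon, was in the WT lists of Tombo, MINES and Epinano and in no KO list. The other 5 were all in KO, where 4 had 1 tool and the AGACA 372 nt after the stop codon had Tombo and Nanom6A. An AGACT whose adenosine lies 2 nt before the stop codon was listed by Tombo, Nanom6A and m6Anet in WT and by Nanom6A in KO. Smarca4-204 has the same stop codon and a 3′ UTR of 398 nt, that of Smarca4-201 runs for 1249 nt, and both were named in the lists. Lines that named Smarca4-201 numbered 41 in WT and 22 in KO, those of Smarca4-202, with a 3′ UTR of 1262 nt, 47 and 9, and those of Smarca4-204 17 and 6. All 7 RRACH motifs of the 398 nt were listed, and 0 of the 10 motifs beyond it were listed in any library. Over all genes 3′ UTRs held 25.2 WT or comparison positions and 19.7 KO positions per 100 RRACH motifs.

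Smarcc1, Smarcd1, Smarcb1 and Smarce1 encode core subunits, BAF155, BAF60a, BAF47 and BAF57, that hold the complex together. WT and KO positions numbered 22 and 19 in Smarcc1, 27 and 24 in Smarcd1, 8 and 11 in Smarcb1 and 21 and 17 in Smarce1. Positions in WT only and in KO only numbered 8 and 5 in Smarcc1, 10 and 7 in Smarcd1, 1 and 4 in Smarcb1 and 8 and 4 in Smarce1. The KO to WT ratios were 0.864 (0.442 to 1.67), 0.889 (0.491 to 1.60), 1.38 (0.504 to 3.94) and 0.810 (0.401 to 1.61) in that order, with intervals that include 1. Smarcb1 thus had fewer WT than KO positions, at percentile 96.6 of the KO to WT ratio among the 6789 genes, with an interval that includes 1. Its 8 WT positions are the fewest that this set of genes allows.

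Smarcd1 (chr15:99702129-99713991, plus strand) held the positions with the broadest support. The GGACA 1360 nt after the stop codon was listed in WT by Tombo, MINES, Nanom6A, m6Anet and Epinano, the only position of the 10 genes with 5 tools, and in KO by Tombo, m6Anet and Epinano. A GGACA 1283 nt after the stop codon and a GGACT 566 nt after it were each listed by 4 tools in WT and 3 in KO. The 3′ UTR held 16 of the 34 positions, 14 in WT and 13 in KO, on 20 RRACH motifs, beside the 25.2 and 19.7 per 100 motifs of all genes. The GGACT 100 nt after the stop codon was in WT only, with Tombo, m6Anet and Epinano, and a GGACA 13 nt downstream of it was listed by Tombo and MINES in WT and by Tombo in KO. m6Anet listed 11 positions of this gene in WT and 5 in KO, and 3 were shared.

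Smarcb1 (chr10:75896769-75921617, minus strand) had 2 positions with 3 tools in both libraries. The AGACC of exon 1, 1104 nt before the stop codon, was listed by Tombo, ELIGOS and Epinano in WT and by the same 3 tools in KO. The GGACT 102 nt after the stop codon was listed by Tombo, m6Anet and Epinano in WT and by Tombo, m6Anet and ELIGOS in KO. A GAACA 356 nt before the stop codon was listed by m6Anet, ELIGOS and Epinano in WT and by m6Anet and Epinano in KO. Nanom6A listed 0 positions of Smarcb1 in WT and 4 in KO. The GGACA 205 nt before the stop codon was in KO only, with Tombo and m6Anet.

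Smarcc1 (chr9:110117708-110240178, plus strand) was named mostly through Smarcc1-204, whose 3′ UTR has 230 nt, and also through Smarcc1-201, whose 3′ UTR has 2265 nt. Of its 27 positions, 4 lay in the last exon of Smarcc1-201 and 23 on Smarcc1-204, so both forms were listed, and 2 of these 4 were in both libraries. The best supported position was an AGACA 91 nt after the stop codon of Smarcc1-204, with Tombo, m6Anet and Epinano in WT and Tombo and Epinano in KO. Smarce1 (chr11:99209047-99231017, minus strand) was the member with most positions in the 5′ UTR, 5 on 11 RRACH motifs with 4 in each library, where all genes held 16.9 WT or comparison positions per 100 motifs, and no position of it was listed by more than 2 tools in WT. Its GGACT 742 nt after the stop codon, 1 of 3 positions with 2 tools in WT, was listed by Tombo and Epinano and was in no KO list. In KO an AAACC 198 nt after the stop codon and a GAACT 242 nt after it had 3 tools each.

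**Figure D3:**
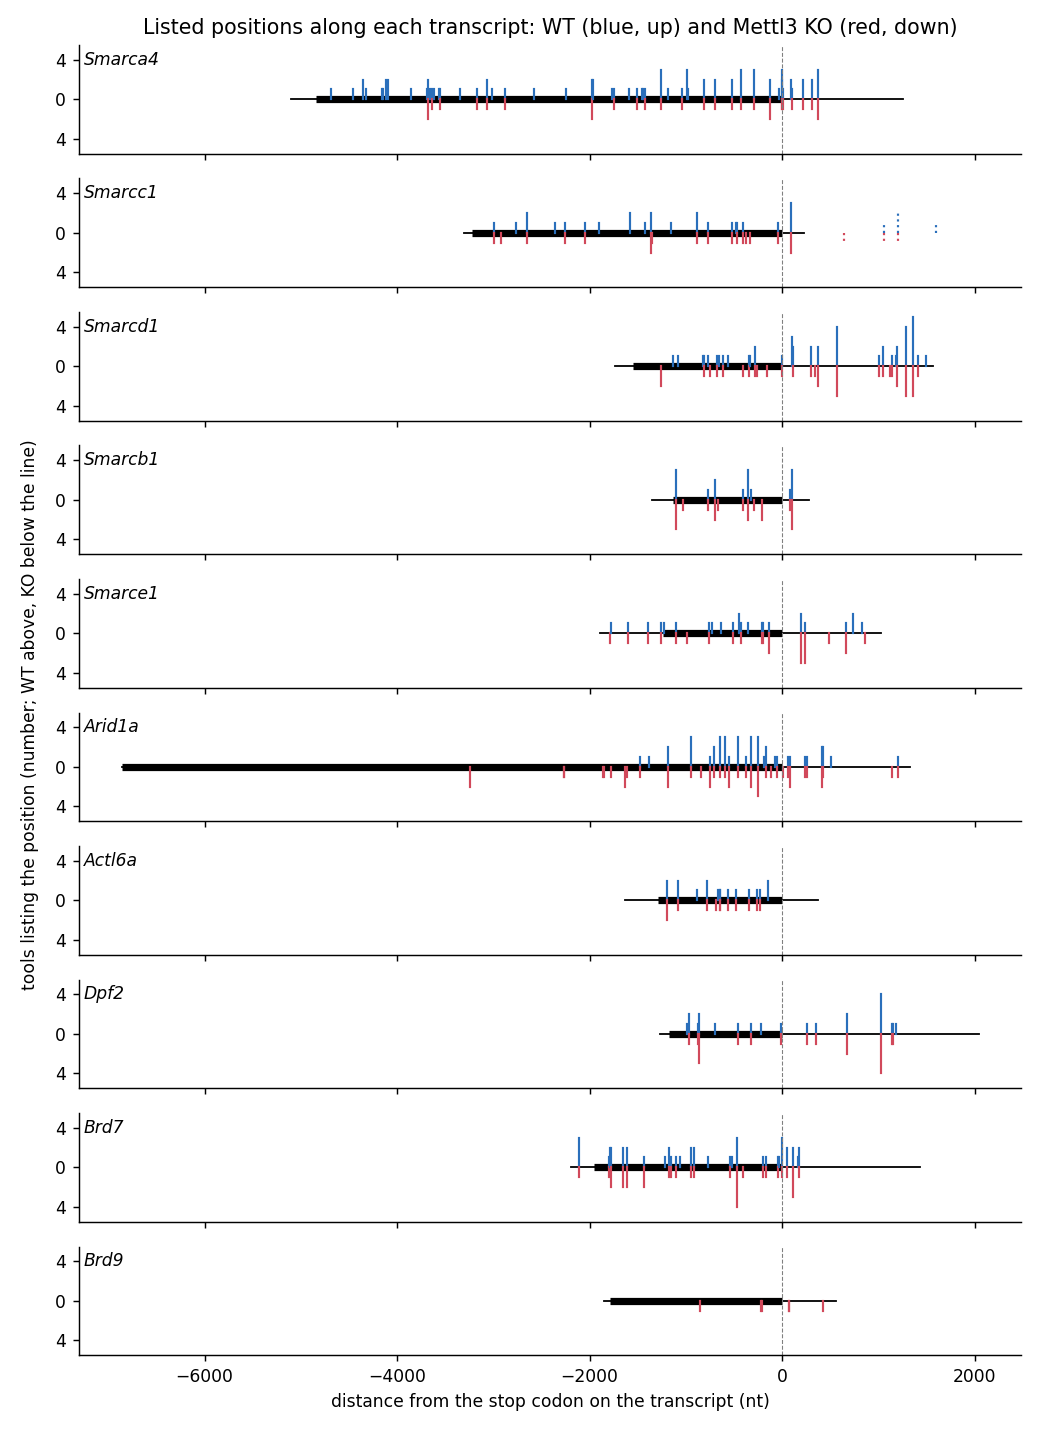
Listed positions along the transcript of each gene, by distance from the stop codon in nt (x axis). Bars up (blue) give the number of tools that listed the position in WT and bars down (red) the number in KO, the thick line is the coding sequence, and dotted bars are positions of Smarcc1 placed on Smarcc1-201. The farthest upstream bars are blue in Smarca4 and red in Arid1a, and Brd9 has red bars only.

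Arid1a, the DNA-binding BAF250a subunit that defines the canonical BAF complex, had more positions in KO than in WT. It held 25 WT and 33 KO positions on chr4:133679008-133756769 (minus strand), a ratio of 1.32 (0.761 to 2.32) at percentile 95.5 of the 6789 genes, with an interval that includes 1. Positions in WT only numbered 4 and those in KO only 12. All 25 WT positions lay in exon 20, the last exon of 3048 nt on Arid1a-205, and reached 2800 nt from the 3′ end. KO positions reached farther upstream, with 27 in exon 20, 2 in exon 19 and 3 in exon 18 among them. The stretch beyond the WT positions held 64 RRACH motifs, of which 8 were listed in KO, and since the WT positions set this boundary no WT position can lie beyond it. The part of read coverage along the transcript was not tested.

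The tools split in Arid1a. Nanom6A, m6Anet and ELIGOS listed 0 positions in WT and 4, 2 and 1 in KO, and Tombo listed 15 in WT and 25 in KO. Epinano listed 18 in WT and 6 in KO, and MINES 9 and 5. The GGACA 254 nt before the stop codon was listed by Tombo, MINES and Epinano in WT and by Tombo, MINES and m6Anet in KO, the only position of the gene with 3 tools in each library. A GGACC 458 nt before the stop codon had Tombo, MINES and Epinano in WT and only m6Anet in KO. It was 1 of 6 positions of the gene with 3 tools in WT, and Tombo listed all the others in KO too. Between 1000 and 2000 nt from the 3′ end, 15 of 22 motifs had a WT listing and 15 a KO listing, beside 28.6% and 24.1% of the motifs of all genes. The numbers were 1 and 2 of 4 within 500 nt and 3 and 2 of 6 at 500 to 1000 nt. They were 6 and 8 of 20 at 2000 to 3000 nt, 0 and 5 of 10 at 3000 to 4000 nt, and 0 and 1 of 48 beyond. Over all genes WT shares of these other stretches were 35.4%, 33.2%, 23.3%, 18.9% and 12.3%. In KO they were 28.9%, 28.2%, 19.4%, 15.1% and 10.4%.

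**Figure D4:**
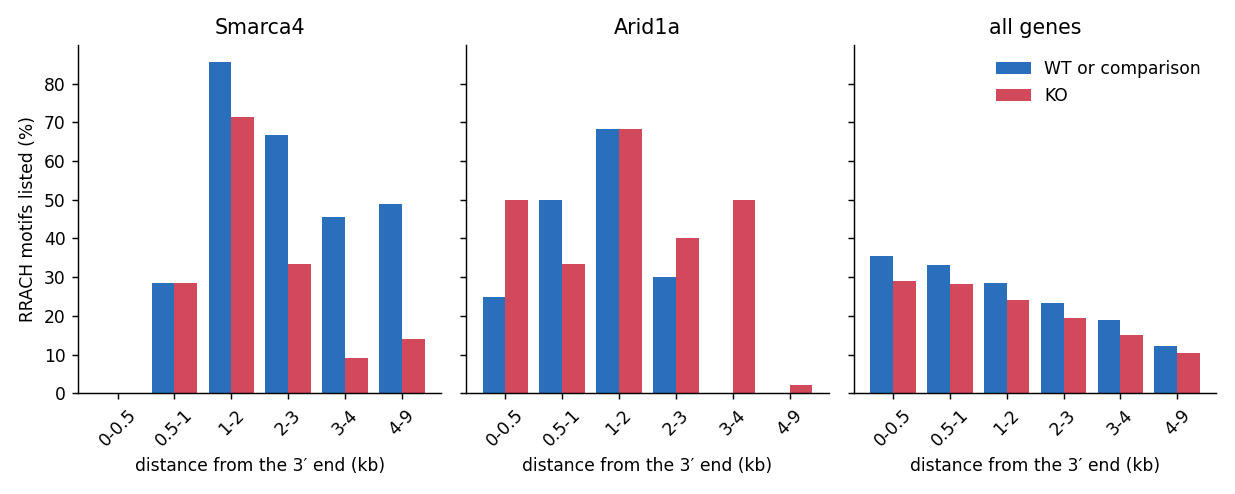
Percentage of RRACH motifs that were listed (y axis) by distance from the 3′ end in kb (x axis) in Smarca4, Arid1a and all genes, for WT or comparison lists (blue) and KO lists (red). In Smarca4 the KO bars beyond 2 kb are lower than the bar at 1 to 2 kb, in Arid1a the WT bars are at 0 beyond 3 kb, and bars of these 2 genes rest on 4 to 48 motifs each.

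Dpf2 (BAF45d, a reader of modified histones) held 16 WT positions on chr19:5896516-5913010 (minus strand), 12 of which were in KO, with none in KO only. The GGACA 1027 nt after the stop codon was listed by Tombo, MINES, m6Anet and Epinano in WT and by the same 4 tools in KO, the only position of the 10 genes with 4 tools in both. Actl6a (BAF53a, an actin-related protein bound to the ATPase) held 13 WT and 11 KO positions on chr3:32706298-32726973 (plus strand), and 10 were in both. Thus 4 of 16 WT positions of Dpf2 and 3 of 13 of Actl6a were in no KO list, beside the 41.0% of the series. All 14 of its positions were coding, and its 3′ UTR holds 1 RRACH motif. No position of Actl6a had more than 2 tools in WT, and 4 had 2. Of these, an AAACT 151 nt before the stop codon was listed by Tombo and Nanom6A and was in no KO list, while the others were also in KO.

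Brd7 and Brd9 are bromodomain subunits of the 2 other SWI/SNF forms, PBAF and non-canonical BAF. Brd7 held 27 WT and 21 KO positions on chr8:88331039-88362194 (minus strand), and 20 were in both. Nanom6A listed 12 in WT and 4 in KO, while m6Anet listed 7 in each and shared 5. The GGACA of exon 13, 473 nt before the stop codon, was listed by Tombo, MINES and Nanom6A in WT and by these and m6Anet in KO. The GAACT whose adenosine is the first base after the stop codon was listed by Tombo, Nanom6A and m6Anet in WT and by m6Anet in KO.

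Brd9 was in no WT list. Its 6 KO positions on chr13:73937811-73960895 (plus strand) came from Tombo at 5 positions and from Epinano at 1, each with 1 tool. Over the series, 5.49% of the 7070 genes with at least 6 KO positions had no WT or comparison position, so the pattern is not particular to Brd9. In the other direction 397 of 7717 genes with at least 6 WT or comparison positions had no KO position, which is 5.14%. A lower read number of a gene in 1 library and a real difference cannot be told apart from lists.

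**Figure D5:**
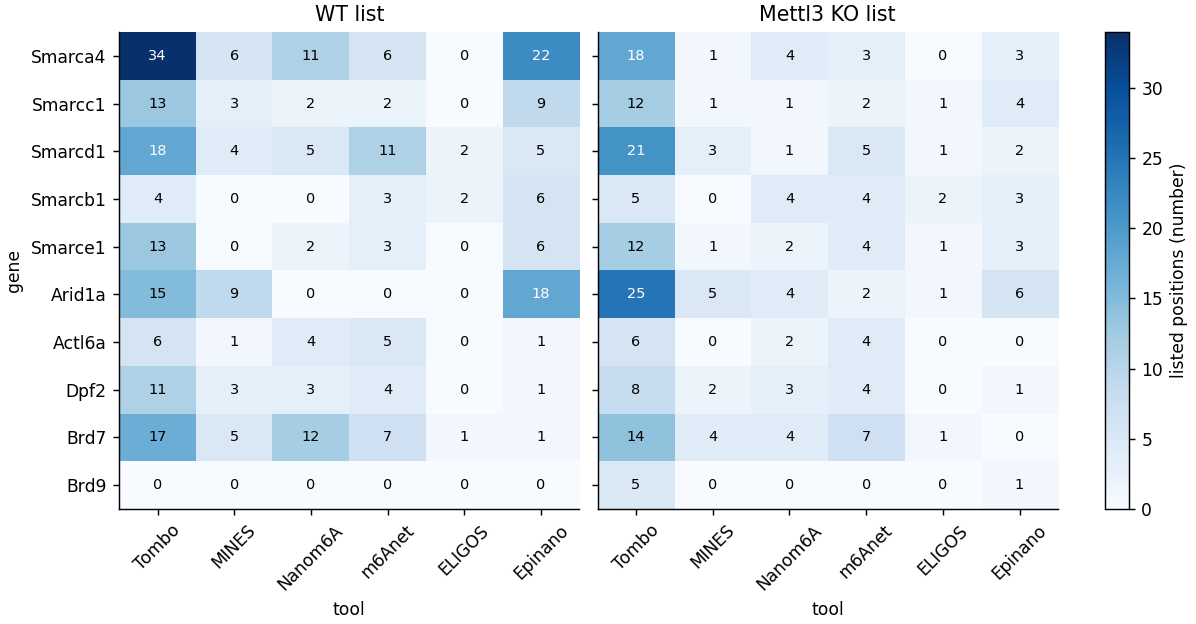
Number of positions that each single-mode tool (x axis) listed in each gene (y axis), in WT on the left and in the Mettl3 KO on the right. Tombo gives 34 positions in WT and 18 in KO for Smarca4 and 15 and 25 for Arid1a, and Nanom6A gives 12 and 4 for Brd7 and 0 and 4 for Smarcb1.

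Positions were placed next on the transcript, where m6A is known to gather around the stop codon. The window of 200 nt on either side of it held 33 of the 211 WT positions (15.6%, 11.4 to 21.1) and 30 of the 179 KO positions (16.8%, 12.0 to 22.9). The same shares over the series were 22.6% in WT and 21.1% in KO. Of the 585 RRACH motifs of the 10 transcripts, 61 (10.4%) lay in that window, against 12.6% of the motifs of all genes. The WT and KO intervals of the subunit genes overlapped almost entirely, but 139 positions, 25 of them in that window, belong to both sets. Shared positions draw the WT and KO shares together, so this overlap cannot show whether the libraries differ in that window. Positions in WT only lay there in 8 of 72 cases (11.1%, 5.74 to 20.4), those in both in 25 of 139 (18.0%, 12.5 to 25.2) and those in KO only in 5 of 40 (12.5%, 5.46 to 26.1), with intervals that overlap. Over the series 10787 of 51292 positions in WT only lay there, 23.6% of those in both and 15.1% of those in KO only.

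Most positions were coding. In WT 154 of 211 (73.0%) lay in coding sequence, 52 (24.6%) in the 3′ UTR and 5 (2.37%) in the 5′ UTR, close to the 72.8%, 23.1% and 4.10% of the RRACH motifs of these transcripts. Over the series 56.1% of WT or comparison positions were coding. Positions in WT only were coding in 61 of 72 cases (84.7%, 74.7 to 91.2), and those in both libraries in 93 of 139 (66.9%, 58.7 to 74.2). Without Smarca4 these intervals overlapped, with 35 of 45 (77.8%, 63.7 to 87.5) and 74 of 114 (64.9%, 55.8 to 73.1). Over the series 52.9% of positions in WT only and 58.3% of positions in both were coding.

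Exon junction complexes are known to keep m6A away from the ends of exons, and of the motifs of the 10 transcripts 35.9% lay over 100 nt from a junction. Positions in both libraries lay that far in 58 of 139 cases (41.7%, 33.9 to 50.0), those in WT only in 18 of 72 (25.0%, 16.4 to 36.1) and those in KO only in 17 of 40 (42.5%, 28.5 to 57.8), and the 3 intervals overlap. Over the series 60.1% of positions in WT only, 49.5% of those in both and 50.9% of those in KO only were that far, with 55.8% of motifs. Without Smarca4 the values were 28.9% in WT only (17.7 to 43.4) and 47.4% in both (38.4 to 56.5), and without Arid1a, whose last exon holds 31 of its 37 positions, 20.6% (12.7 to 31.6) and 31.4% (23.7 to 40.2), again with overlapping intervals. Positions of a gene share its exon structure and are not replicates, so these shares describe these 10 genes.

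The density of listings was set against the motifs available. On the transcript that the lists named most, WT lists held 53.1 positions per 100 RRACH motifs in Smarca4, 50.9 in Smarcd1, 46.4 in Actl6a, 42.9 in Smarce1, 38.0 in Brd7, 35.6 in Dpf2, 34.8 in Smarcb1, 27.5 in Smarcc1, 22.7 in Arid1a and 0 in Brd9. The median of the 10 was 36.8, and the median of the 9916 genes with a listed position and at least 10 motifs was 29.5. Smarca4 lay at percentile 80.2 of these genes and Arid1a at 39.5. In KO the order changed, with 47.8 in Smarcb1 and 45.3 in Smarcd1 on top and 25.5 in Smarca4, which then lay at percentile 54.7, while Arid1a with 30.0 lay at 62.0.

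The share of motifs that were listed differed between the RRACH 5-mers. GGACT was listed in WT at 18 of 29 motifs of the 10 transcripts (62.1%), GGACA at 36 of 65 (55.4%) and GAACT at 23 of 42 (54.8%), while GAACA was listed at 13 of 58 (22.4%). Over all genes the values were 40.6%, 38.7%, 25.2% and 17.1%. In KO, GGACT was listed at 13 of 29 motifs (44.8%) and GGACA at 36 of 65, as many as in WT, against 27.6% and 33.8% over all genes in KO. AGACA was listed at 24 of 68 motifs in WT and at 28 in KO, with 31.5% and 30.6% over all genes. GGACA accounted for 31 of the 139 positions in both libraries and for 5 of the 72 in WT only, and over the series it made up 16.3% and 12.0% of them. GGACC accounted for 8 and 12, and for 6.03% and 10.8% over the series. The 4 motifs that MINES lists made up 37.5% of positions in WT only (27.2 to 49.0) and 43.2% of those in both (35.2 to 51.5). Over the series they made up 47.3% and 40.5%, both within these intervals.

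Of 34 pairs of neighbouring positions at most 20 nt apart, 12 pairs had the same status (WT only, KO only or both) and 22 did not, which is 35.3% with the same status against 55.6% of the 20142 such pairs of all genes. Pairs share positions and were not tested. An example of a pair that differed is the GGACT 100 nt after the stop codon of Smarcd1, in WT only, and the GGACA 13 nt downstream, in both. In Smarce1 an AGACC and a GGACT of the 5′ UTR, 7 nt apart, were listed by Epinano, the first in WT only and the second in KO only. Signals of neighbouring bases pass the pore together, so positions a few nt apart are not independent readings.

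Other SWI/SNF subunit genes were read from a list of 19. Of these, 11 had a listed position and 8 had none, namely Smarca2, Smarcd3, Actl6b, Dpf1, Dpf3, Bcl7a, Ss18l1 and Bicra. Actl6b, Dpf1, Dpf3 and Ss18l1 are known as subunits of the neuronal complex. Absence from the lists does not show that a gene was not transcribed. Positions were more numerous in WT than in KO in 7 of the 11 genes and less numerous in 4. Together the 19 genes held 219 positions, 64 of whose 149 WT or comparison positions (43.0%, 35.3 to 51.0) were in no KO list, beside 34.1% in the 10 genes.

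Ss18, Arid2 and Smarcd2 held most WT or comparison positions of the 19. Ss18, a subunit of BAF and non-canonical BAF, held 32 in WT or comparison lists and 30 in KO. One of them, 290 nt after the stop codon, was listed by 9 tools, among them xPore, DiffErr and DRUMMER, with m6Anet alone in KO. It was the only position of any of the 29 subunit genes in a comparison list. Arid2, the PBAF counterpart of Arid1a, held 30 and 18 positions, and Smarcd2, a paralog of Smarcd1, 26 and 21.

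Another 3 of the 19 genes were listed almost only in KO, as Brd9 was. Smarcc2, the paralog of Smarcc1 that esBAF is known to lack, held 0 WT and 7 KO positions. Arid1b, the paralog of Arid1a, held 0 and 12. Bicral, which like Brd9 belongs to non-canonical BAF, held 1 and 24, and was singled out after its values were seen. The 5.49% given above is the background for Smarcc2 and Arid1b but not for Bicral, which had a WT position, and read numbers of these genes in the 2 libraries were not tested.

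The labels were checked in the lists. In Mettl3, exons 5 to 7 held 2 WT positions and no KO position, exons 1 to 4 held 7 and 0, and exons 8 to 11 held 4 and 5. All 10 markers of embryonic stem cells had listings in both libraries, with 246 WT or comparison and 187 KO positions, from 6 to 50 per gene in WT and from 2 to 38 in KO. Of 8 fibroblast markers 6 were at 0 in both libraries, with 3 WT and 4 KO positions in Col1a1 and Thy1, and of 3 neural markers Tubb3 alone was listed. Of 4 primitive endoderm markers Sox17 was listed, with 12 WT positions and 0 KO positions, and Gata4, Gata6 and Foxa2 were at 0. In RNA of a whole culture, fewer cells of a type and less RNA per cell cannot be told apart, and the part of any such cells in the results above was not tested.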

How the data were processed

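Reads were basecalled by the authors and mapped to GENCODE transcripts of GRCm38. They tested RRACH motifs with a minimum number of reads, which was higher for m6Anet, and converted transcript positions to genome positions. The deposited lists hold positions only, and the cut-off behind each list is not given with it. Libraries were grouped by their labels.

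Positions were assigned to exons of GENCODE M21 on the same strand, as GRCm38 is the build of the lists. In the member genes 578 of 578 lines with a transcript gave a transcript position at the listed base, and 64 of 64 Nanom6A lines named the gene. Each position was placed on the coding transcript named on most list lines. Distances run from the first base of the stop codon. Shares have 95% Wilson intervals, a share of 0 also the limit that 3 counts give, and ratios intervals from the exact binomial. With 1 library per condition no test across libraries was possible.

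The genes, lists and rules were chosen with earlier results of these data known. Named were the best supported WT position of each gene, positions in a comparison list or of at least 6 tools, positions of at least 3 tools in both libraries, and KO-only positions of at least 2 tools. Ties for the best supported position went to more comparison lists, then fewer KO lists, then genomic order. The position named from a tie thus leans towards absence from KO. Other positions named were chosen after their values were seen. Of the KO-only positions 1 is not reported here. Placement and intervals were checked on simulated data. Python 3.11.15, numpy, scipy, pysam and matplotlib were used. Alternatives were own-listing assignment, joining within 5 nt, RRACH only, lists without Tombo, MINES or Nanom6A, other windows and the longest transcript. Leaving out Smarca4 or Arid1a was chosen after seeing the data.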

Additional observations from a re-analysis of the deposited data

How the results depend on the processing

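Of 70 alternative values, 60 stayed within 1.5 times the count or within the 95% interval of the share or ratio (1 point for a percentile), and 10 moved. Own-listing assignment and RRACH only left out none of the 251 positions of the 10 genes, so their values for these genes could not move. Without the Tombo lists the KO positions of the 10 genes numbered 88 instead of 179, and 54.4% of WT positions were in no KO list instead of 34.1%, so that fewer positions were in both libraries than in 1. With windows of 100 and 400 nt the share around the stop codon was 9.00% and 28.4%. Against the KO list of any tool, the repeated share was 80.6% for MINES, 69.2% for Nanom6A, 73.2% for m6Anet and 65.2% for Epinano. The median percentile of listing density over the 10 genes, 60.5 per RRACH motif, was 66.7 per nt of transcript and 63.6 on the longest coding transcript. No position was in a comparison list or reached 6 tools under any alternative run for these counts. Only joining within 5 nt could have raised these counts from 0, as the other alternatives can only leave positions out. No paired analysis was possible because each condition has 1 library. The lists carry no read numbers, so how depth limits these counts is unknown.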
